A study of Mus musculus with 74 samples.

Results

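Ribosomal protein genes of mouse quadriceps were described in animals with and without the transcriptional repressor BCL6, and in wild-type muscle treated with FX1, a BCL6 inhibitor. Members were all genes whose symbol names a cytosolic ribosomal protein or a paralog (Rpl or Rps with a number, Rplp0 to Rplp2, and Rpsa), without the Rps6 kinases. The rule found 85 of 24940 genes in the tables of counts and expression values, 52 of the large subunit and 33 of the small subunit. The rule uses symbols and no measured value, but it was chosen with earlier results of these data known.

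The cytosolic ribosome is built from ribosomal RNA and a fixed set of proteins, nearly all present in a single copy. Their mRNAs often start with a run of pyrimidines, the 5′ TOP, through which mTOR signalling can control their translation. Several proteins have a paralog with a restricted pattern. Rpl3l replaces Rpl3 in ribosomes of adult skeletal and heart muscle, and Rpl10l stands in for Rpl10 in the testis. RiboTag is an allele of Rpl22 that adds an HA tag to its protein after Cre recombination, so ribosomes of the recombined cells can be pulled down.

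All 74 samples of the series were quadriceps of C57BL/6 mice, and the labels give no ages. Poly(A) RNA came from 5 knockouts (AEC-Esr Cre (+):Bcl6 fl/fl, given tamoxifen), 4 Cre-negative mice (Bcl6 fl/fl, given tamoxifen) and 4 oil-treated mice (AEC-Esr Cre (+):Bcl6 fl/fl, given oil). RiboTag libraries came from 4 knockouts (AEC-Esr Cre (+):Bcl6 fl/fl; RiboTag (+)) and 4 controls (AEC-Esr Cre (+); RiboTag (+)), all given tamoxifen, with a footprint and an mRNA library from each animal; an animal is named below by its footprint library. Both RiboTag groups therefore carry the tagged Rpl22 allele and Cre, and the controls have no floxed Bcl6 in their label. The mRNA libraries are labelled poly(A) RNA, but the HA antibody is listed for them too, so it was not settled whether they hold whole-muscle RNA. Nascent RNA came from 5 FX1-treated and 5 DMSO-treated wild-type samples. The histone mark H3K27ac, found at active promoters, was mapped in 3 knockouts (AEC-Esr Cre (+):Bcl6 fl/fl) and 3 Cre-negative mice (Bcl6 fl/fl) in each of an acute series, a chronic series and a series of the RNA mice, all given tamoxifen. BCL6 itself was mapped in 1 wild-type library. The promoter behind AEC is not spelled out in the labels, and loss of Bcl6 follows Cre activity only.

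Bcl6, the targeted gene, was read as a check of the labels. Its poly(A) log2 value was 10.09, 10.22, 9.99, 10.25 and 9.98 in knockouts, against 10.21, 10.41, 10.36 and 10.38 in Cre-negative mice and 10.43, 10.31, 10.52 and 10.52 in oil-treated mice (limma adjusted p = 0.0135 and 0.00288). Its footprints fell by 1.12 on the log2 scale in RiboTag knockouts (edgeR adjusted p = 0.00201), whereas its counts over the gene body in the mRNA libraries differed by 0.14 (adjusted p = 0.84). Poly(A) libraries held 6700000 to 7620000 tags and nascent libraries 13900000 to 32700000 tags (rounded), footprint libraries 3248807 to 4370468 counts in genes and RiboTag mRNA libraries 6499561 to 13045854. The 10 muscle fibre markers were abundant in every RiboTag library, with summed CPM (counts scaled to the library total) of 32936 to 50005 in knockout footprints and 35839 to 43424 in control footprints. Markers of cells other than fibres, given with the footprint results, were present as well.

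Ribosomal protein mRNA was a small share of the counts. The members summed to 0.331% ± 0.0293 of the counts in knockout mRNA libraries and 0.304% ± 0.0219 in control mRNA libraries (SD, n = 4 each), and to 0.155% ± 0.0166 in knockout footprints and 0.147% ± 0.00937 in control footprints. The ranges overlapped in both kinds of RiboTag library. In poly(A) RNA, where the share is a sum of back-transformed log2 values, it was 0.448% ± 0.00554 in knockouts (n = 5) and 0.430% ± 0.00562 in Cre-negative mice (n = 4). In the table made with oil-treated mice it was 0.445% ± 0.00615 in the same knockouts and 0.418% ± 0.00471 in oil-treated mice (n = 4). The poly(A) ranges did not overlap, at 0.4395% to 0.453% in knockouts and 0.423% to 0.4365% in Cre-negative mice. With oil-treated mice they were 0.436% to 0.4509% in knockouts and 0.411% to 0.4226% in oil-treated mice. No test was run on these shares. Rpl10l had 0 counts in all 8 RiboTag mRNA libraries. In footprints 34 of the 85 members averaged under 10 counts, 40 averaged 10 to 100 and 11 averaged 100 or more, so most single footprint values rest on few tags.

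Per kilobase of exon, the most abundant member in control RiboTag mRNA was Rpl3l, at 396 ± 28.7 CPM per kb (SD, n = 4). Other abundant members were Rpl8 at 235.3 ± 20.6, Rpl4 at 209 ± 20.3 and Rplp1 at 153 ± 23.2 CPM per kb. Rpl8 is a core protein of the large subunit, Rpl4 lines the exit tunnel and Rplp1 belongs to the acidic stalk. Rpl8 and Rpl4 lay within about their combined spread of each other, and Rpl3l stood above all others in every control RiboTag mRNA library. At the low end were Rpl10l at 0, Rpl32l at 0.692, Rps27 at 0.794, Rps23 at 0.906 and Rpl39l at 1.12 CPM per kb, an order that is not resolved at these counts. In poly(A) RNA of Cre-negative mice Rps27 and Rps23 were not low, at 285 ± 6.84 and 200.4 ± 5.72 per kb on the back-transformed scale, so their level depended on the table. The top rank of Rpl3l depended on it too. Rpl3l stood at 1003 ± 40.2 per kb in Cre-negative poly(A) RNA, with Rplp1 at 1009 ± 24.5. In knockout poly(A) RNA Rpl3l stood at 948 ± 10.5 per kb, with Rplp1 at 1028 ± 27.6 and Rpl4 at 958 ± 33.8. RiboTag mRNA CPM divided by the poly(A) value had a median of 0.0637 over 82 members and 0.128 over all 12114 genes, each with a log2 poly(A) value of at least 5. Among the members this ratio had a median of 0.0514 for the 64 with a pseudogene named after them in RefSeq and 0.114 for the 18 with none. How reads that match a gene and its processed copies were assigned is not given in the sources used here, so levels of members with near-identical copies are uncertain.

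**Figure D1:**
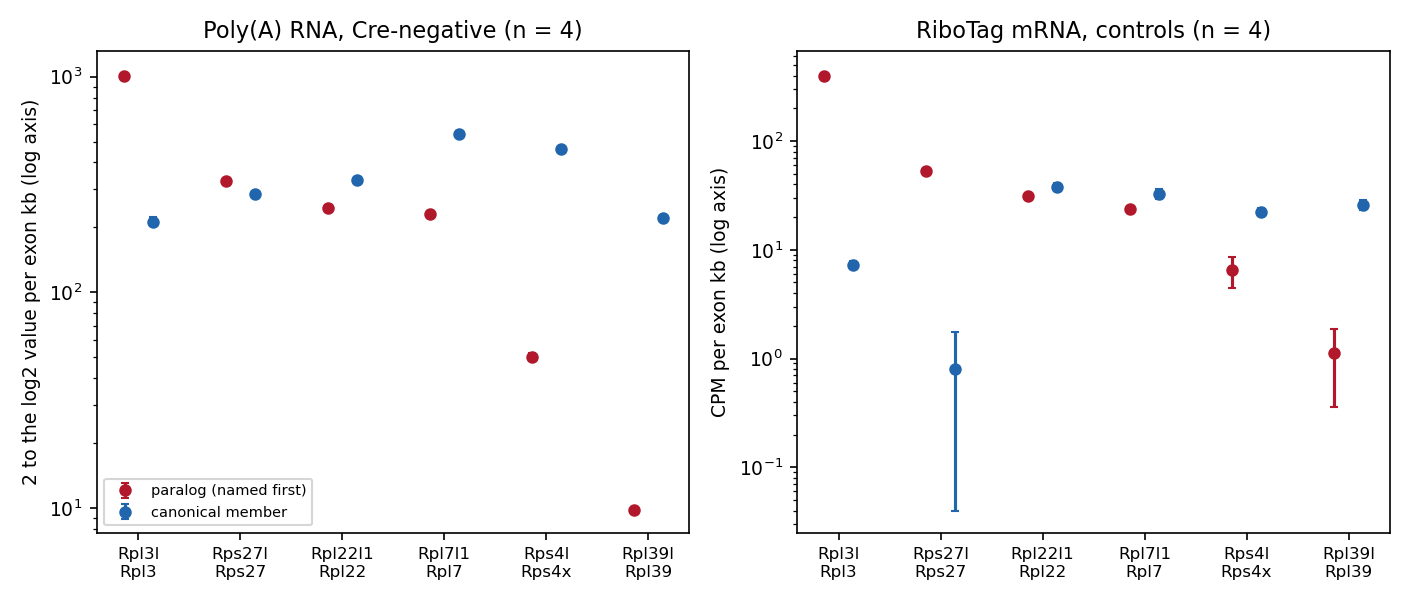
Levels of 6 ribosomal protein paralogs and their canonical partners per kilobase of exon on log axes (points, mean; bars, SD, n = 4), in Cre-negative poly(A) RNA on the left and control RiboTag mRNA on the right. Rpl3l lies above Rpl3 in both tables, while Rps27l and Rps27 are close in poly(A) RNA and far apart in RiboTag mRNA.

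Rpl3l was the dominant form of the Rpl3 pair in every group. Per exon base, the ratio of Rpl3l to Rpl3 in poly(A) RNA ran from 4.32 to 4.45 in knockouts (median 4.36, n = 5) and from 4.35 to 5.03 in Cre-negative mice (median 4.79, n = 4). The ranges overlapped only at the lowest Cre-negative mouse. In RiboTag mRNA the ratio was 41.8 to 50.4 in knockouts and 49.2 to 60.8 in controls, again with a small overlap. RiboTag counts are limited to 5 tags per position, and Rpl3l mRNA reached 4.52 tags per exon base, which may lower this ratio. Loss of Rpl3 tags that match its processed copies may raise it. Rpl3 has 2 pseudogenes named after it and Rpl3l has 0. RiboTag mRNA CPM over the poly(A) value was 0.0344 for Rpl3 and 0.395 for Rpl3l. Neither part was tested, so the ratio is no lower bound. In footprints the ratio was 39.1 to 181 in knockouts (summed counts of 4080 for Rpl3l and 48 for Rpl3) and 21.3 to 51.8 in controls (4366 and 142). By median, knockouts were below controls in RNA and above them in footprints, a contrast that was not tested as such.

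In the other pairs the paralog stood below its partner or close to it in poly(A) RNA. Rpl22l1 to Rpl22 had a median ratio of 0.712 in knockout and 0.747 in Cre-negative poly(A) RNA, and of 0.653 in knockout and 0.851 in control RiboTag mRNA. The RiboTag ranges did not overlap (0.617 to 0.686 in knockouts and 0.703 to 0.906 in controls). Rpl7l1 to Rpl7 was 0.420 in knockouts and 0.424 in Cre-negative mice, Rps4l to Rps4x 0.106 and 0.110, and Rpl39l to Rpl39 0.0441 and 0.0444 in the same order. Rps27l, a p53-inducible form of Rps27, stood at a ratio of 1.15 to Rps27 in both poly(A) groups. In the RiboTag counts, by contrast, Rps27l stood far above Rps27. The ratio per exon base of its summed counts was 39.3 in knockout mRNA (1400 counts for Rps27l and 35 for Rps27) and 59.5 in control mRNA (1150 and 19), and 43.9 in knockout footprints (939 and 21) and 29.0 in control footprints (943 and 32). These pairs differ in the number of close copies elsewhere in the genome, so ratios between tables are not comparable.

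The 30 bases around the annotated start (RefSeq, GRCm38.p6, from 15 bases before it) are shown for members that the results below turn on, since the start carries the 5′ TOP. Capitals mark the longest run of pyrimidines in each window.
Rpl7a, chr2:26910792-26910821, plus strand: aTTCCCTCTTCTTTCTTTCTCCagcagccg
Rpl27a, chr7:109519180-109519209, plus strand: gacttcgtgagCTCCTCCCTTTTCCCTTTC
Rpl6, chr5:121204486-121204515, plus strand: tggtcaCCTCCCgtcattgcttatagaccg
Rpl5, chr5:107900513-107900542, plus strand: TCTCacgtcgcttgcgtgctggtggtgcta
Rps6, chr4:86857353-86857382, minus strand: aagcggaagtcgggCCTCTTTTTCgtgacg
Rpl3l, chr17:24727811-24727840, plus strand: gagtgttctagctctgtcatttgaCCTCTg
Rpl22, chr4:152324421-152324450, plus strand: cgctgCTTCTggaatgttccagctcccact
Within the windows, the runs are 21, 19 and 10 bases long for Rpl7a, Rpl27a and Rps6, and 6 and 4 for Rpl6 and Rpl5. They are 5 bases long for Rpl3l and for this Rpl22 start. The Rpl27a and Rpl5 runs touch an end of their window and may be longer than shown. Rpl3 and Rpl32 are named only. A run of at least 7 pyrimidines lay in 36 of 76 start windows of the 64 members with an entry (47.4%), against 18.6% of all 32851 windows. Other letters were searched on both strands of the whole promoter windows, from 250 bases before the start to 50 after it. CCGGAAG, an ETS core, was in 27 of 76 windows (35.5%, against 8.86% of all), and AAGATGGC, a YY1-like motif, in 8 (10.5%, against 2.75%). The E-box CACGTG was in 8 (10.5%, against 7.15%), TATAAA in 8 (10.5%, against 13.6%) and TTCNNNGAA, a palindrome of STAT and BCL6 sites, in 3 (3.95%, against 8.3%). A match describes letters only.

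In poly(A) RNA the ribosomal protein genes changed little, and the changes that passed the test were mostly small increases against oil-treated mice. All values are the authors' normalized log2 values, and n is 5 knockouts against 4 mice of each control group, each library a separate animal by its title. Against Cre-negative mice 2 of the 82 members tested were higher and none was lower, where 6.55% and 10.3% of all 12111 genes were called (limma, adjusted p below 0.05). Against oil-treated mice 15 of 82 were higher and 1 was lower, where 10.9% and 14.7% of 12146 genes were called. The knockout libraries are the same in both comparisons. The median change of the members was 0.02 against Cre-negative and 0.05 against oil-treated mice, with all genes at 0.00 in both, and 67 and 78 of the 82 were above 0. The authors' deposited fold changes had larger member medians, 0.04 and 0.09 in that order, and put Rpl27a at 0.18 and 0.27. The sizes given here therefore hold on the scale of these log2 values only. In bulk muscle, fewer cells of a type and less RNA per cell cannot be told apart.

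Rpl27a, a large subunit protein, had the largest increase among the members in both comparisons. Its log2 value was 7.88, 7.92, 7.88, 7.90 and 7.91 in knockouts, against 7.81, 7.82, 7.78 and 7.84 in Cre-negative mice. Every knockout was above every Cre-negative mouse, with a difference of 0.09 ± 0.02 (SE, limma adjusted p = 0.0174). In the table with oil-treated mice it was 7.89, 7.93, 7.88, 7.91 and 7.92 in knockouts, against 7.75, 7.76, 7.75 and 7.79 in oil-treated mice, a difference of 0.14 (adjusted p = 0.000844).

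Rpl22, the gene that carries the tag in RiboTag mice but not in these animals, was next. Its values were 9.70, 9.61, 9.72, 9.72 and 9.68 in knockouts, against 9.61, 9.62, 9.60 and 9.59 in Cre-negative mice. Knockout P1896 lay within the Cre-negative range, and the difference of 0.08 ± 0.03 (SE) reached the threshold only before rounding (limma adjusted p = 0.05). The call was lost without any one of 8 of the 9 libraries, P1896 being the exception. Against oil-treated mice Rpl22 was 0.14 higher (adjusted p = 0.0028) and the groups did not overlap, with 9.72, 9.62, 9.74, 9.73 and 9.69 in knockouts and 9.59, 9.56, 9.57 and 9.53 in oil-treated mice. Its paralog Rpl22l1, which can take its place in the ribosome, differed by 0.02 and 0.06 in the comparisons with Cre-negative and with oil-treated mice, and passed neither test.

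Rpl3l was the only member lower than oil-treated mice by the test. Its log2 value was 10.33, 10.35, 10.36, 10.35 and 10.38 in knockouts, against 10.45, 10.49, 10.43 and 10.46 in oil-treated mice, so every knockout was below every oil-treated mouse (difference -0.10 ± 0.02, SE, limma adjusted p = 0.00276). After quantile normalization the difference was -0.04 and the call was lost (adjusted p = 0.132, with 0.00261 to 0.012 under the other settings). Against Cre-negative mice Rpl3l differed by -0.08 ± 0.03 (SE, adjusted p = 0.0613), with 10.31, 10.33, 10.34, 10.33 and 10.35 in knockouts and 10.45, 10.39, 10.34 and 10.46 in Cre-negative mice. Cre-negative P1906 lay within the knockout range, and without it the difference was -0.11 (adjusted p = 0.0111). Rpl3 differed by 0.03 in both comparisons and passed neither test.

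The other members higher than oil-treated mice came from both subunits, 9 of 49 large subunit genes and 6 of 33 small subunit genes in all. Among them were Rpl32 (0.12, limma adjusted p = 0.00317), Rpl4 (0.11, adjusted p = 0.00964), Rpl8 (0.11, adjusted p = 0.0106), Rps13 (0.09, adjusted p = 0.0118) and Rps4x (0.10, adjusted p = 0.0186). Rplp0, the base of the stalk and a common reference gene for quantitative PCR, was 0.07 higher (adjusted p = 0.0358). Rps6, the substrate of S6 kinases, and Rpsa, also known as the laminin receptor, differed by 0.05 and 0.02 and did not pass. Against oil-treated mice, the authors' deposited table gives an increase for 5 of 85 members (5.88%) and a decrease for Rpl3l (1.18%), where it calls 3.52% of its 24940 genes higher and 5.97% lower. The authors' deposited table against Cre-negative mice called no member, where it calls 2.21% of genes higher and 4.3% lower. Leaving out single libraries moved the number of members called here from 16 to between 9 (without oil-treated P1905) and 20 (without knockout P1896). All 5 red cell markers were higher in the same comparison, with summed back-transformed values of 670.3 to 706 in knockouts and 613 to 649 in oil-treated mice. Of the 10 muscle fibre markers 3 were higher and 3 lower, among them Myh7 (0.30) and Ttn (-0.29), and their sums were 73659 to 78405 in knockouts and 77798 to 80952 in oil-treated mice. Of 5 fibroblast markers 2 were lower, and of 4 leukocyte markers tested 1 was. Higher were 1 of 3 Schwann cell markers, 1 of 3 tendon markers and 1 of 2 satellite cell markers tested. No endothelial, adipocyte or smooth muscle marker was called. The part of these markers in the result was not tested.

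**Figure D2:**
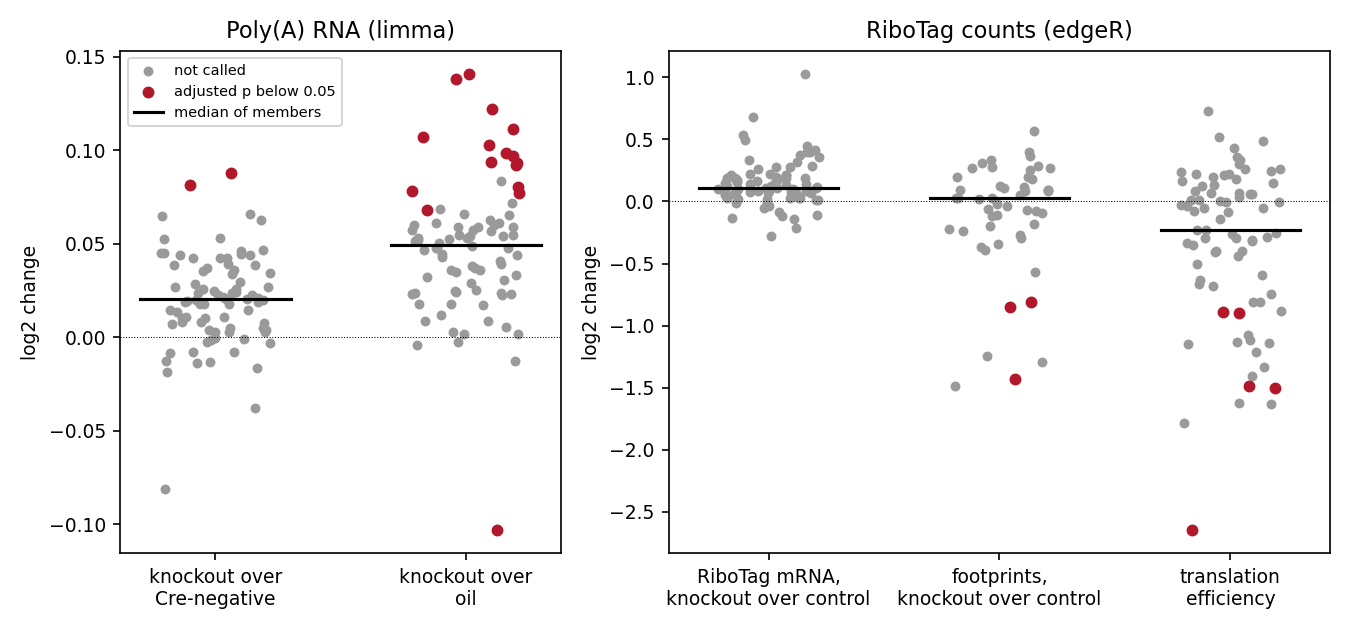
Log2 change of each ribosomal protein gene in poly(A) RNA (left, knockout over Cre-negative and over oil-treated mice) and in RiboTag libraries (right, knockout over control), with red points for adjusted p below 0.05 and bars for the median of the members. On the scale of the deposited log2 values the poly(A) changes stay within 0.15, most of them above 0. The calls in footprints and in translation efficiency are all below 0.

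In RiboTag mRNA the members were higher by a median of 0.11 (log2, all genes 0.01), and 69 of the 80 tested were above 0. None was called by edgeR, where 1.95% of 14476 genes were called higher and 2.25% lower. At an unadjusted p below 0.05 there were 5 higher and 0 lower, and DESeq2 called 1, Rpl22. Rpl22 had 120, 118, 115 and 102 CPM in knockouts, against 99.8, 86.7, 83.8 and 94.0 CPM in controls. Every knockout was above every control, with a difference of 0.32 ± 0.09 (SE, adjusted p = 0.0703). Rpl27a had 24.2, 22.7, 29.8 and 25.5 CPM in knockouts, against 18.9, 19.96, 21.7 and 20.2 CPM in controls (0.34, adjusted p = 0.148), also without overlap. Rpl27a and Rpl22 also had the smallest p among members with an increase in the poly(A) comparisons, which used other animals, and Rpl22 counts in RiboTag mice come from the tagged allele too. Rpl3l differed by -0.15 (adjusted p = 0.537) and Rpl3 by 0.11 (adjusted p = 0.758). Rpl3l mRNA came near the limit on tags per position given above, so its change may be compressed.

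Footprints, the stretches of mRNA protected by pulled-down ribosomes, showed a different set of members. Of 50 members with enough counts to test (35 had too few), 3 large subunit genes fell and none rose, where 15.7% of 12979 genes were called lower and 10.9% higher (edgeR). The members' share of 6% lower was thus below that of all genes. The median change was 0.02, and 26 of the 50 were above 0.

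Rpl7a, a large subunit protein with a long pyrimidine run at its start as printed above, had the smallest p. It had 22.003, 21.7, 16.1 and 12.8 CPM in knockout footprints, against 34.9, 31.7, 31.0 and 29.1 CPM in control footprints. Every knockout was below every control (log2 change -0.81 ± 0.18, SE, edgeR adjusted p = 0.00652). Its mRNA did not fall, at 22.1, 21.3, 23.2 and 19.8 CPM in knockouts and 16.8, 20.8, 20.1 and 21.7 CPM in controls.

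Rpl6, another large subunit protein, had 10.9, 9.14, 11.5 and 11.9 CPM in knockout footprints, against 22.5, 13.1, 21.4 and 21.5 CPM in control footprints. The groups did not overlap, although control RPF_11734 was close to the knockouts (log2 change -0.85, edgeR adjusted p = 0.0109). Rpl3, which lies near the catalytic centre of the large subunit, had 1.51, 6.28, 3.46 and 2.13 CPM in knockout footprints, against 5.98, 11.2, 12.4 and 6.56 CPM in control footprints. These rest on 5, 22, 12 and 9 counts in knockouts and 25, 47, 45 and 25 in controls. Knockout RPF_11718 lay above one control, and the difference of -1.43 (adjusted p = 0.0199) was lost without animal RPF_11688, RPF_11722, RPF_11734 or RPF_11735.

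Rpl3l footprints, by contrast, were 275, 248, 292 and 305 CPM in knockouts and 312, 243, 266 and 282 CPM in controls. The groups overlapped widely, with a log2 change of 0.02 (edgeR adjusted p = 0.879). That change turned below 0 without animal RPF_11722, RPF_11734 or RPF_11735. Rpl3 and Rpl3l were tested separately and the difference between their changes was not. Members just short of the threshold lay on both sides of 0, with Rpl5 at -1.29 (adjusted p = 0.0597) and Rpl18 at 0.57 (adjusted p = 0.0711). Rpl5 carries the smallest large-subunit ribosomal RNA into the ribosome and can bind Mdm2. Leaving out single animals moved the number of members called from 3 to between 2 and 9, the highest without control RPF_11673.

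Markers of most cell types other than fibres fell in the same footprints. Of 30 markers of endothelial cells, fibroblasts, leukocytes, adipocytes, Schwann cells, tendon and smooth muscle, 27 were tested, 24 fell and 0 rose (median -1.17). Their summed level was 1938 to 3733 CPM in knockout footprints and 4034 to 6459 CPM in control footprints. No marker was at 0 in all footprint libraries, and only Cd79a and Lep averaged under 10 counts. In the mRNA libraries 1 of 28 fell, with sums of 5624 to 6800 CPM in knockouts and 5528 to 7775 CPM in controls. Of the 10 fibre markers 3 fell and 0 rose in footprints. Red cell and satellite cell markers were not among the 30. Of the red cell markers 1 of 4 tested fell (median -0.34), and of the satellite cell markers 1 of 3 (median -0.83). The part of this shift in the lower footprints of Rpl7a, Rpl6 and Rpl3 was not tested.

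**Figure D3:**
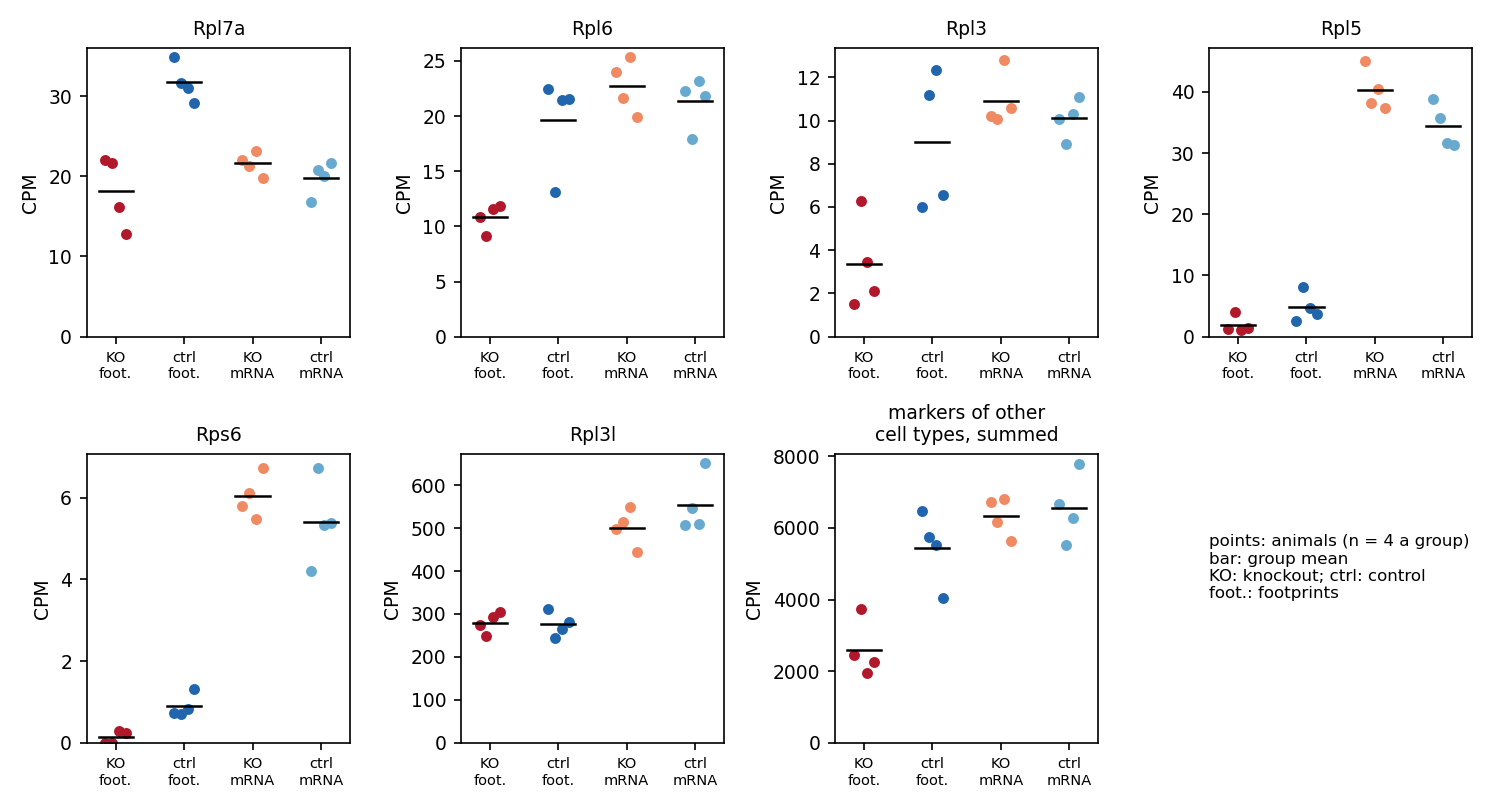
CPM (TMM-adjusted) of 6 ribosomal protein genes and of the summed markers of 7 other cell types in each RiboTag animal. Knockouts are left of controls, first in footprints and then in mRNA (points are animals, bars are means, n = 4). Footprints of Rpl7a and Rpl6 and of the markers are lower in every knockout than in every control, while Rpl3l footprints and the mRNA values of all 6 genes overlap between groups.

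Translation efficiency, the change of footprints minus the change of mRNA in one model over the 16 libraries, was lower for 5 of 78 members and higher for none, where 6.98% of 14935 genes were called lower and 2.93% higher (edgeR). Rpl7a (-0.89 ± 0.21, SE, adjusted p = 0.0156), Rpl6 (-0.90, adjusted p = 0.0255) and Rpl3 (-1.51, adjusted p = 0.0322) were joined by Rps6 and Rpl5 (-1.48, adjusted p = 0.0356). The members had a median of -0.23, against 0.05 over all genes, and 50 of 78 were below 0. Rpl7l1, a paralog of Rpl7, stood at 0.49 (adjusted p = 0.0512) and Rpl3l at 0.21 (adjusted p = 0.346).

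Rps6 had 0, 0, 1 and 1 footprint counts in knockouts, against 3, 3, 3 and 5 in controls. The ratio of its summed footprint CPM was 0.159, knockout over control, with a 95% counting interval of 0.0175 to 0.692 (exact), so its fitted change of -2.65 (edgeR adjusted p = 0.0306) depends on very few tags. Rpl5 had 4, 14, 4 and 6 footprint counts in knockouts, against 11, 34, 17 and 14 in controls, and knockout RPF_11718 lay within the control range. With the animal as a block, since footprints and mRNA of an animal are paired, 3 of the 5 calls were kept (Rpl7a, Rpl6 and Rpl3). No member was called without knockout RPF_11721, knockout RPF_11722 or control RPF_11735, and 1 of the 5 remained without knockout RPF_11688 (Rpl7a) or control RPF_11734 (Rpl6). In the same test 15 of 29 markers of the 7 other cell types were lower and 0 higher (median -1.18), and their part was not tested.

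The authors' deposited table of translation efficiency lists 76 members, and 71 of them had a p-value. Of these, 12 were lower in the authors' deposited table (16.9%) and 1 was higher (1.41%), Rpl7l1 at 0.89, where 14.3% of 13191 genes were lower and 9.12% higher. That deposited table of the authors gives Rpl7a at -1.87, Rpl3 at -1.89 and Rpl27 at -2.33, on its own log2 scale. Rpl27 was not called in the test run here, at -0.30 (edgeR adjusted p = 0.675). Rpl6, called lower above, stands at -0.04 in the authors' deposited table and did not pass (adjusted p = 0.951). The counts run over whole gene bodies, and 30 of the 85 members hold an annotated snoRNA gene inside. Rpl7a holds 4, Rpl3 and Rpl5 hold 3 each, Rpl6 holds 1, and Rps6 and Rpl3l hold none. Of members with such a gene 4 of 29 had lower translation efficiency (median -0.40), against 1 of 49 without (median -0.09). Over all genes the share was 6.98% with and without a snoRNA gene. Whether tags of snoRNAs entered these counts was not tested.

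Within each genotype, footprints of the ribosomal protein genes were low for their mRNA. In knockouts 61 of 77 members tested were lower in footprints than in mRNA and 3 were higher, where 37.9% and 36.7% of 14479 genes were called (edgeR). In controls 55 of 75 were lower and 4 higher, where 36.8% and 34.8% of 14164 genes were called. The median was -1.45 in knockouts and -1.33 in controls, with all genes at -0.03 in both. The libraries differ in preparation and fragment type, so the values compare genes within a genotype and not absolute translation. How reads that match a gene and its processed copies were assigned is not given for either kind of library. Comparisons of members with each other and with all genes are therefore uncertain as well. The part of read assignment in these values was not tested.

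The spread among members was wide. At the low end Rps18 had 2 footprint counts against 819 mRNA counts in knockouts and 5 against 690 in controls. The ratio of its CPM in footprints to that in mRNA was 0.00707 in knockouts (95% counting interval 0.000855 to 0.0256) and 0.0169 in controls (0.00548 to 0.0397). Rpl15 stood at -5.85 in knockouts and -5.09 in controls, and Rpl32 at -2.99 and -2.81. The muscle paralog Rpl3l was nearer to the average gene, at -0.85 in knockouts and -1.11 in controls. Its mRNA reached 4.52 tags per exon base in a library, near the limit of 5 tags per position in the deposited counts. Its mRNA counts may thus be held down, and the part of this limit was not tested. Rpl36a (1.92 in knockouts and 2.18 in controls), Rps25 (1.199 and 1.12) and Rps27l (0.95 and 0.83) were higher in footprints in both genotypes. Rpl3 stood at -1.72 in knockouts (adjusted p = 0.000395) and -0.26 in controls (adjusted p = 0.372), and the translation efficiency value above is the test of that difference.

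**Figure D4:**
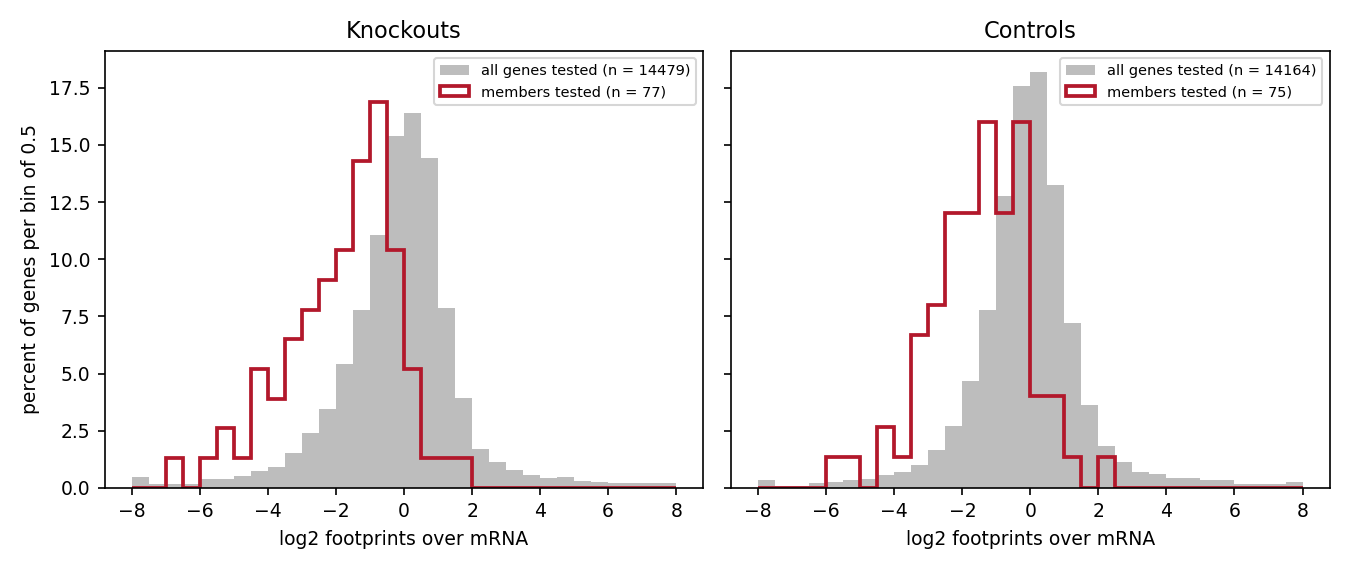
Distribution of log2 footprints over mRNA for ribosomal protein genes (red line) and all genes tested (grey), in knockouts on the left and controls on the right, as percent of genes per bin of 0.5. In both genotypes the members lie to the left of all genes, with medians of -1.45 in knockouts and -1.33 in controls.

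Over the 16 RiboTag libraries, the members most like Rpl3l in log2 CPM were Rpl32 (r = 0.985), Rpl26 (r = 0.984) and Rpl7 (r = 0.98). These libraries share the step between footprints and mRNA. Within the 4 groups the correlations were 0.846, 0.73 and 0.69 in that order, and Rpl3 had 0.514 over all libraries and -0.542 within groups.

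Genes that act on ribosomal protein mRNAs or build ribosomes were counted in the same way, and no test compared them with the members. Over all genes, 10.9% rose and 15.7% fell in footprints, and 2.93% rose and 6.98% fell in translation efficiency. Of 30 ribosome assembly genes 9 rose and 0 fell in knockout footprints (median 0.24), and 4 rose and 0 fell in translation efficiency (median 0.30). Among them were Gnl3 (0.60, edgeR adjusted p = 0.0031), Myc (0.76, adjusted p = 0.0032), Gar1 (0.84, adjusted p = 0.0076) and Ncl (0.53, adjusted p = 0.01) in footprints, coding for a nucleolar GTPase, a transcription factor, a snoRNP protein and nucleolin. Of 16 genes that control translation of these mRNAs 4 rose and 1 fell in footprints. Eif4ebp1, a translational repressor and mTOR target, rose by 1.07, and Mtor itself fell by 0.74 on the log2 scale. Of 19 other mRNAs with a 5′ TOP tested 1 rose and 1 fell, Eif4b at 0.32 and Eef1a1 at -0.68, with a median of 0.00.

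FX1, a small molecule that binds BCL6, was tested in wild-type muscle by nascent RNA sequencing. There 1 of 81 members was lower and none higher, where 11.2% and 12.4% of 13039 genes were called (limma, n = 5 FX1 and 5 DMSO). The median of the members was -0.12, against 0.02 over all genes, and 62 of 81 were below 0. The member called was Rpl32, with log2 values of 7.29, 7.31, 7.46, 7.65 and 7.47 in FX1 samples, against 8.08, 8.09, 7.85, 7.50 and 8.01 in DMSO samples. The groups overlapped at DMSO sample 4, and the difference was -0.47 ± 0.13 (SE, limma adjusted p = 0.0243). The call was lost without DMSO sample 1, 2 or 5 or FX1 sample 1 or 2. Of the 10 muscle fibre markers 5 were lower in FX1 samples and 0 higher (median -0.86), with summed back-transformed values of 771264 to 1189850 in FX1 samples and 1493040 to 1833740 in DMSO samples. Those sums did not overlap, and their part in the members' changes was not tested.

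Rpl32, higher in knockouts than in oil-treated mice, was thus lower with FX1. Other members named above did not pass in nascent RNA. Rpl3l had 11.15, 11.04, 10.67, 10.44 and 10.32 in FX1 samples, against 10.71, 10.42, 10.42, 10.81 and 10.53 in DMSO samples, and the groups overlapped widely (0.14, limma adjusted p = 0.567). Rpl22 differed by -0.12 (limma adjusted p = 0.352) and Rpl3 by 0.16 (adjusted p = 0.479). Rpl29 was next after Rpl32, at -0.41 (adjusted p = 0.0619), and then Rps27l at -0.32 (adjusted p = 0.118). FX1 and knockout were measured in different kinds of RNA, and no test compared them.

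Promoter acetylation of the ribosomal protein genes showed no called difference. In the acute series 67 regions within 1000 bp of a start belonged to 64 members, and 0 were called, where 0.0937% of 71480 regions were called higher and 0.0042% lower (limma). In the chronic series 0 of 68 regions were called, where 0.166% of 67918 were called higher and 0.0118% lower. No region of a member reached an unadjusted p of 0.05 in either series. Changes ran from -0.37 (Rpl10) to 0.26 (Rpl22l1) in the acute series and from -0.42 (Rpl13) to 0.47 (Rpl27) in the chronic series. The median signal was 89.2 in knockouts and 89.0 in Cre-negative mice in the acute series, and 79.4 and 81.1 in the chronic series, in tags per 10000000. With 3 mice a group, changes of this size could not be told from the spread.

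**Figure D5:**
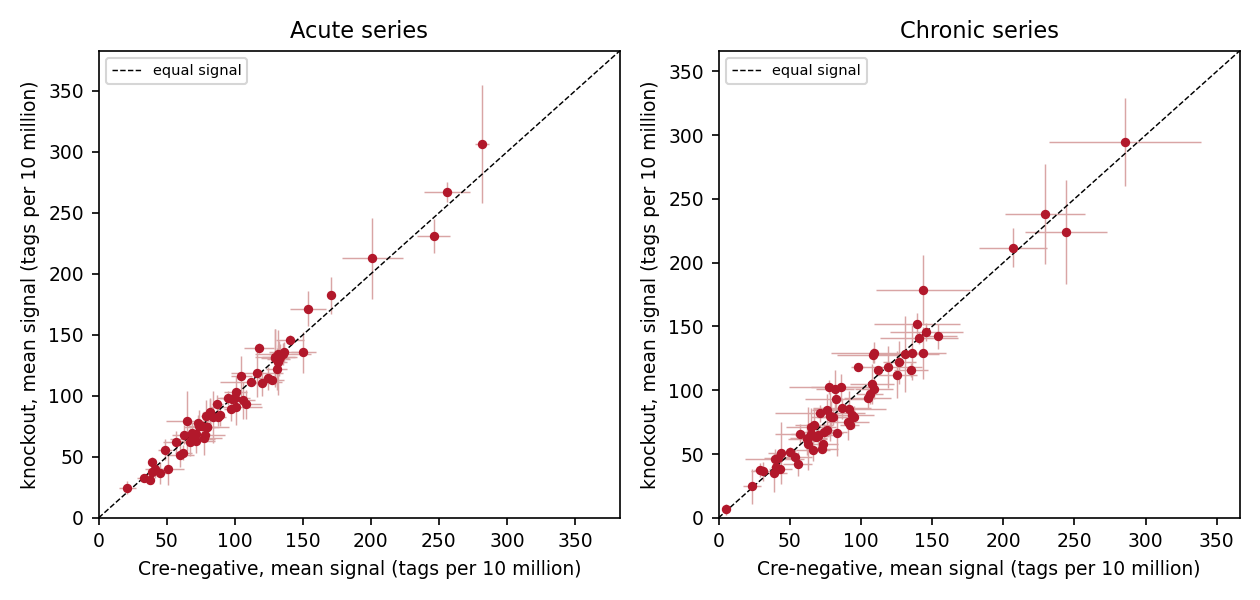
H3K27ac signal at ribosomal protein promoters, mean of 3 knockouts against mean of 3 Cre-negative mice, in the acute series on the left and the chronic series on the right (tags per 10000000; bars, SD; dashed line, equal signal). The promoters lie along the line in both series, at mean signals from 21.1 to 306 in the acute and from 5.48 to 295 in the chronic series.

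BCL6 peaks lay within 1000 bp of the start of 8 of 85 members (9.41%), against 1646 of 24940 genes (6.6%). The peaks come from 1 library, and their scores are the authors'. Rpl37 had the highest score, 69.8, with its centre at -492 bp from the start, and ranked 1168 of 10925 peaks. Rpl3l had 2 peaks, at 50.2 (at -887 bp from its downstream start) and 35.5 (at -103 bp from the other), Rpl41 had one at 44.1, and Rpl30, Rpl22, Rps24 and Rps26 had one each. With the stronger scores alone, 4 members remained (4.71%, against 3.84% of all genes). Within 500 bp the shares were 7.06% of members and 4.99% of genes, and within 5000 bp their order turned, with 10.6% of members and 11% of genes. Rpl3l and Rpl22 also passed the poly(A) test against oil-treated mice.

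The upstream windows under the peaks nearest to a start are shown for Rpl3l and Rpl41, with capitals for the bases that the peak covers (RefSeq, GRCm38.p6).
Rpl3l, chr17:24727576-24727825, plus strand: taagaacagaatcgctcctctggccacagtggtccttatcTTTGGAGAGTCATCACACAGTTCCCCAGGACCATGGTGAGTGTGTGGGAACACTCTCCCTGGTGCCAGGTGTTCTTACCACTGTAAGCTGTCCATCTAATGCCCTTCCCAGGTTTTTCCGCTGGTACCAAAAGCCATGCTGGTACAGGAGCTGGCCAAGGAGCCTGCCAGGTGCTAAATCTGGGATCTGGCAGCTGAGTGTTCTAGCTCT
Rpl41, chr10:128549169-128549418, minus strand: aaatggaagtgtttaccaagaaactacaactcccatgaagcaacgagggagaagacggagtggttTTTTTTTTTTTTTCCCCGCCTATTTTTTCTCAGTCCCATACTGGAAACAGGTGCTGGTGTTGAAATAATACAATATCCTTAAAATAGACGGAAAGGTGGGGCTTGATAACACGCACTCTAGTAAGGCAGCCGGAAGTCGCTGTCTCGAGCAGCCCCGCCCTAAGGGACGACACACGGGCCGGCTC
The peak covers 210 and 185 of the 250 bases shown. Neither window holds TTCNNNGAA, and the Rpl41 window holds CCGGAAG at 1 place.

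H3K27ac in the mice used for poly(A) RNA was counted in windows of 1000 bp on BCL6 peaks, 9 of them at these 8 members. None was called by limma or reached an unadjusted p of 0.05, where 16.7% of 9080 windows were called higher and 1.44% lower. Rpl22 had signals of 33.1, 19.4 and 32.01 in knockouts, against 17.99, 21.3 and 19.1 in Cre-negative mice. Knockout mKO_1900 lay within the Cre-negative range, and the difference was 0.48 (adjusted p = 0.193). At Rpl3l the window at the downstream start differed by -0.07 and that at the other start by 0.07, with limma adjusted p = 0.637 and 0.692. After quantile normalization the downstream window was called lower, at -0.27 (adjusted p = 0.0237, with 0.548 to 0.935 under the other settings), and the median of all windows was -0.07, against 0.14 before it.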

How the data were processed

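The submitters' processing notes name alignment to mm10, Bowtie 1.2, STAR 2.4.0, HOMER and DESeq2 1.14.1, and do not assign tools to files. The authors' log2 values for poly(A) RNA come from HOMER counts in exons on both strands, and those for nascent RNA from gene bodies, per the file headers; the transform is not named. RiboTag values are deposited counts over gene bodies, limited to 5 tags per position, and 13 members came near that limit (over 1 tag per exon base in a library). Rpl3l was the highest of them, at 4.52 tags per exon base. H3K27ac values are a deposited signal in tags per 10000000, and BCL6 peaks carry the authors' score. The authors' p-value and log2 fold change were copied for comparison only.

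For counts, the quasi-likelihood test of edgeR 4.0.16 was used (TMM, filterByExpr with a minimum count of 10); translation efficiency was the genotype by library-type interaction. Log2 values (mean of at least 5) and log2 of signal plus 1 (mean signal of at least 5) were fitted by limma 3.58.1 with trended variance. Fits covered whole tables, with Benjamini-Hochberg adjustment and a threshold of 0.05, and were tested on simulated data. The members, gene lists, markers and tests were chosen with earlier results of these data known. Named genes are the paralog pairs and Rplp0, Rps6 and Rpsa, up to 8 called members of each direction with the smallest p per comparison (or the 3 with the smallest p), the 5 highest and 5 lowest by level and the 8 with the highest peak scores; the text gives those the comparisons turn on, and a few named members are not reported here.

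Footprints and mRNA were paired by the animal number in the titles, and deviations from group means correlated at -0.101 to 0.491 within an animal. Nascent samples share only a number, and p-values there measure the spread between these samples. Intervals cover counting error only. Alternatives were DESeq2 1.42.0, no TMM, no filter, quantile normalization, a pseudocount of 5, leaving out genes near the cap, a replicate block, leaving out each sample, other distances and the upper range of peak scores. R 4.3.3 ran the fits with data.table (1.17.8); figures were drawn with matplotlib 3.10.9 under Python 3.11.15, with pandas 2.3.3 and numpy 2.4.6.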

Additional observations from a re-analysis of the deposited data

Results flagged for a closer look

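In 64 groups of 4 or 5 samples the highest or lowest sample was compared with the others, and chance alone gives about 1 such sample in 20 groups. Rpl3 had a log2 value of 8.26 in Cre-negative mouse P1899, with the next highest at 8.13. Rpl6 had 13.1 CPM in footprints of control RPF_11734, with the next lowest at 21.4 CPM. Footprint and mRNA changes differed by the interaction test of edgeR for Rpl7a (-0.89, adjusted p = 0.0156), Rpl6 (-0.90, adjusted p = 0.0255), Rps6 (-2.65, adjusted p = 0.0306), Rpl3 (-1.51, adjusted p = 0.0322) and Rpl5 (-1.48, adjusted p = 0.0356). Each of these differences is lower in knockouts than in controls and rests on the counts given with the translation efficiency results.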

How the results depend on the processing

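The number of members called stayed within 1.5 times that reported under most settings. It was 1 against Cre-negative mice with no filter, 1 in RiboTag mRNA with DESeq2 and 1 with no TMM, 8 in translation efficiency with DESeq2, and 1 in H3K27ac windows with quantile normalization (Rpl3l, lower). With the stronger peak scores 4 members had a BCL6 peak. The replicate block by animal gave 3 calls in translation efficiency, 61 for footprints over mRNA in controls and 64 in knockouts. For nascent RNA, where the pairing is a number only (correlations from -0.435 to 0.179), the block gave 0. Leaving out single samples gave 1 to 2 calls against Cre-negative mice, 9 to 20 against oil, 0 in RiboTag mRNA, 2 to 9 in footprints, 0 to 7 in translation efficiency, 61 to 63 and 56 to 58 for footprints over mRNA in knockouts and controls, 0 to 3 in nascent RNA and 0 in H3K27ac. Directions turned only for changes near 0. Rpl22l1 in RiboTag mRNA (-0.01) was 0.0525 with no TMM and above 0 without RPF_11722, RPF_11734 or RPF_11745 (0.0396, 0.00156 and 0.0259), within -0.0668 to 0.0396 over all animals left out. Rpl3l in footprints was below 0 without RPF_11722, RPF_11734 or RPF_11735, within -0.0159 to 0.0848 over all animals, Rpl3l in nascent RNA -0.00434 and Rps26 in H3K27ac windows -0.0569 with quantile normalization. The other Rpl3l window was -0.116 with quantile normalization and -0.0181 to 0.144 over all mice left out, lowest without Ctr_1906. The cause of these shifts was not tested. No TMM moved the median of all genes to 0.08 in RiboTag mRNA and that of the members to 0.18. Depth limits the footprint values, since 34 members averaged under 10 counts.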
